A study of Drosophila melanogaster with 14 samples.

Results

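A group of 71 unnamed Drosophila melanogaster genes was higher in septin double mutant larvae than in the control and both single mutants. Unnamed means that the gene symbol was CG followed by digits, the form given to genes first predicted from the genome sequence. Members were chosen from the measured values, as log2 CPM, the log2 of the read count scaled to library size. The mean of the double mutant had to be at least 2, and at least 1 above the control mean. The means of both single mutants had to lie within 0.6 of the control mean. The lowest double mutant library had to lie above the highest of the other 10 libraries. Of 17869 genes in the table, 6080 had such a symbol and 4842 of those passed the filter on low values (above 0 log2 CPM in at least 3 libraries). Among them 3650 reached the level in the double mutant, 604 also the difference, 210 also the separation of libraries, and 71 also the closeness of the single mutants. All 71 passed the filter on low values. Because these values chose the members, their levels below are a description and carry no test.

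Bulk sequencing of polyadenylated RNA covered whole larvae of the third instar in 4 genotypes. They were W1118, the white-eyed control stock, with 4 libraries, Sep2[2] with 3, Sep5[2] with 3 and Sep2[2] Sep5[2] with 4. The series text calls the double mutant homozygous for both alleles. These groups are called w1118, Sep2, Sep5 and double mutant here. All were kept at 25 degrees C without treatment, and no transgene or driver is named in the labels. The labels do not say what either allele removes, how many larvae went into a library or whether the libraries of a genotype came from separate cultures. In whole larvae, fewer cells of a type and less RNA per cell cannot be told apart.

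Septins bind GTP and join into hetero-oligomers and filaments along membranes, actin and microtubules. Flies have a small septin family, in which related subunits can stand in for one another in the complex. The study's title places them at the neuromuscular junction of the larva, where motor neurons contact body wall muscle. A set that differs in the double mutant and little in either single mutant is therefore one of the patterns the 4 genotypes were able to show. Functional annotation of the members was not examined here, and RefSeq synonyms gave a name for a few of those described below.

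Depth ran from 8858393 reads (double mutant replicate 3) to 47203028 (Sep5 replicate 2). Septin5, the gene mutated in Sep5, had 218, 134, 90 and 214 reads in w1118 replicates 1 to 4, at most 1 read in a Sep5 library and 3 to 15 reads in a double mutant library. Scaled to depth, it stood at 1.87 to 2.99 log2 CPM in w1118 and -3.65 to -2.76 in Sep5. Double mutant replicates 1 to 4 held -1.80, -2.36, 0.50 and -0.10, so replicate 3 was the highest of them, on 10 reads. On these few reads, Septin5 RNA was not equally low in Sep5 and the double mutant. Septin2 stood at 5.55 to 6.07 log2 CPM in w1118, 4.44 to 4.88 in Sep2, and -0.31, -1.52, -0.42 and 3.20 in double mutant replicates 1 to 4. The Sep2 libraries, labelled with the same allele, thus kept 21.7 to 29.4 CPM of Septin2, against 46.6 to 67.2 in w1118. Double mutant replicates 1 to 3 held 0.73, 0.27 and 0.67 CPM, so Septin2 RNA was not equally low in Sep2 and the double mutant. Replicate 4 of the double mutant thus stood apart, with 160 Septin2 reads against 5 to 21 in the other 3. Without it 92 unnamed genes met the thresholds, 65 of the 71 among them. Sep5 replicate 2 was the lowest Sep5 library for 59 of the 71 (83.1%, against 37.7% of all tested genes), and without it 43 genes met the thresholds, 42 of them members. The choice limited the Sep5 mean, so a low Sep5 library could let a gene in, and the 83.1% is a description only. The protocol text speaks of adult flies. Library medians of 6 larval salivary glue genes lay between 6.48 and 11.69 log2 CPM, and those of 10 yolk protein, chorion and opsin genes, which mark adults, between -2.62 and -0.30.

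**Figure D1:**
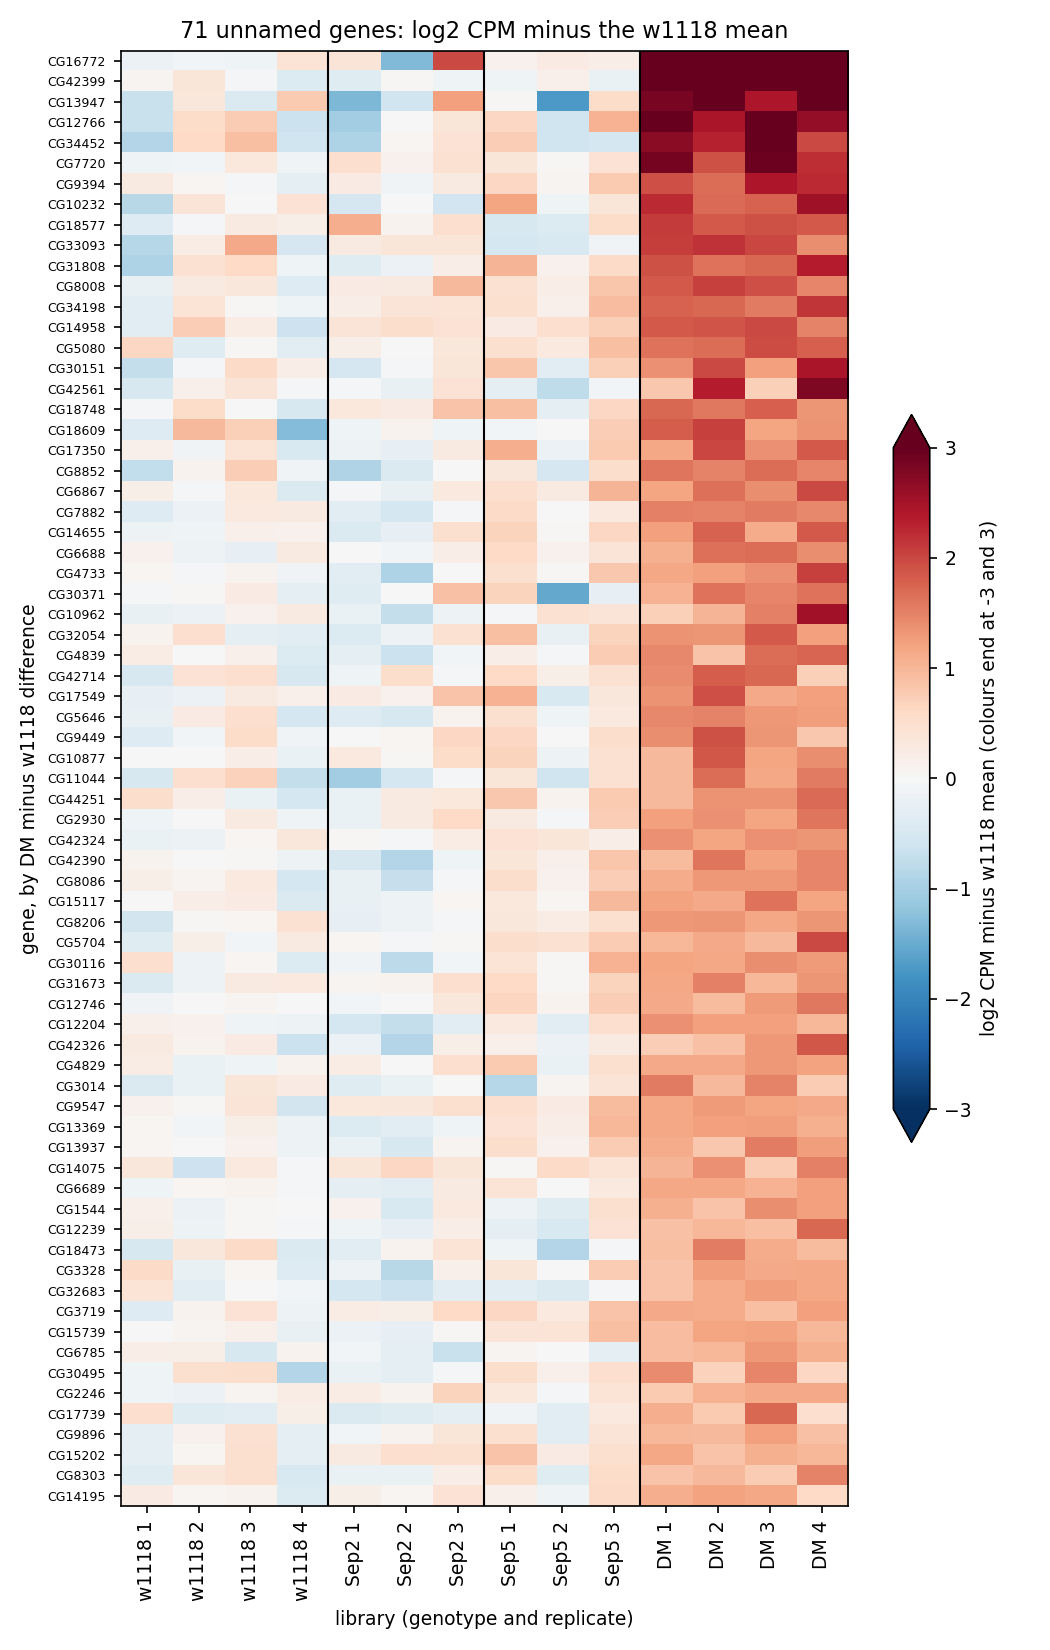
Log2 CPM minus the mean of the 4 w1118 libraries, for the 71 unnamed genes (rows, ordered by the difference between double mutant and w1118 means) in each of the 14 libraries (columns, DM is the double mutant). Colours end at -3 and 3. All 4 double mutant columns are above the w1118 mean for every gene, by a median of 1.17, 1.37, 1.35 and 1.44, and Sep5 replicates 1 and 3 are pale red for most genes.

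The difference between the double mutant and w1118 means ran from 1.01 to 5.92 log2 units over the 71 genes, with a median of 1.35 (2.55-fold). It lay below 1.5 for 49 genes, was at least 2 for 8 and at least 3 for 3. The step from the highest of the other 10 libraries to the lowest double mutant library had a median of 0.34 and was below 0.2 for 22 genes and at least 1 for 6. Across all 12586 tested genes, 924 (7.34%) had every double mutant library above the other 10, and 191 (1.52%) met all thresholds apart from the symbol. Unnamed genes met them about as often as others, 71 of 4842 (1.47%) against 120 of 7744 (1.55%). In limma, a linear model test over all tested genes, all 71 were called higher than w1118 at an adjusted p of 0.05, as were 22.5% of tested genes. That call uses the contrast that chose the members, and nothing is read from it. The reverse thresholds, with the double mutant lower, were met by 53 unnamed genes.

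CG16772, on chromosome arm 2L (BDGP6 coordinates 19962679 to 19963844), was the member closest to silent outside the double mutant. It stood at -2.51, -2.42, -2.47 and -1.93 log2 CPM in w1118 replicates 1 to 4, from 2 to 5 reads each. In Sep2 it stood at -1.94, -3.65 and -0.36, where the lowest is the value of 0 reads, and in Sep5 at -2.21, -2.09 and -2.13. The double mutant libraries held 2.53, 3.58, 2.33 and 5.91, from 37 to 1051 reads. All 4 were far above the rest, and replicate 4, the library that kept Septin2 reads, was the highest. The means differed by 5.92 on the log2 scale (60.5-fold). That fold is pulled towards 1, since the deposited values contain a small count added before logs were taken.

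CG42399 (2L, 144231 to 153300) had the widest step between the double mutant and every other library, 3.20 log2 units. Its w1118 values were 3.45, 3.75, 3.36 and 2.97 log2 CPM, and its double mutant values 7.15, 6.95, 9.10 and 7.58. Sep2 (3.01, 3.43 and 3.25) and Sep5 (3.27, 3.53 and 3.18) stayed inside the w1118 range. The level went from 1.99 ± 0.43 CPM per kb of exon in w1118 to 47.3 ± 37.7 in the double mutant (SD, n = 4 each), with replicate 3 the highest.

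CG13947 (2L, 779173 to 779655), a gene of a single exon, spread more within genotypes. Its double mutant libraries stood at 3.65, 6.62, 3.22 and 4.63 log2 CPM and its w1118 libraries at 0.12, 1.13, 0.37 and 1.57. The Sep2 values were -0.55, 0.21 and 2.02 and the Sep5 values 0.83, -0.93 and 1.35. Here replicate 2 was the highest double mutant library, well above the next, and the means differed by 3.73. CG16772, CG42399, CG13947 and CG42561 were the 4 members whose double mutant libraries spanned more than 2 log2 units.

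CG12766 (3L, 3938624 to 3940125) went from -0.46, 0.77, 0.96 and -0.44 log2 CPM in w1118 to 3.33, 2.66, 3.68 and 2.86 in the double mutant, a difference of 2.92. CG34452 (3L, 15686352 to 15687902) held 0.71, 2.18, 2.48 and 0.99 in w1118 and 4.30, 3.90, 4.58 and 3.58 in the double mutant, a difference of 2.50. In both genes w1118 replicates 2 and 3 were well above replicates 1 and 4, yet the double mutant did not overlap them. CG34452 was close to w1118 in both single mutants, at -0.15 in Sep2 and -0.13 in Sep5.

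CG7720 (3R, 18759236 to 18795169) carries the RefSeq synonym dSLC5A1, after the human family of sodium-coupled sugar transporters. It stood at 5.42, 5.48, 5.86 and 5.44 log2 CPM in w1118 and at 8.41, 7.47, 8.49 and 7.76 in the double mutant. Sep2 libraries held 6.05, 5.67 and 6.01 and Sep5 libraries 5.91, 5.58 and 5.98, somewhat above most of w1118. Among the 8 members with a difference of at least 2 it was the most abundant per length, with 83.8 ± 27.6 CPM per kb in the double mutant and 14.5 ± 2.3 in w1118 (SD, n = 4 each).

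**Figure D2:**
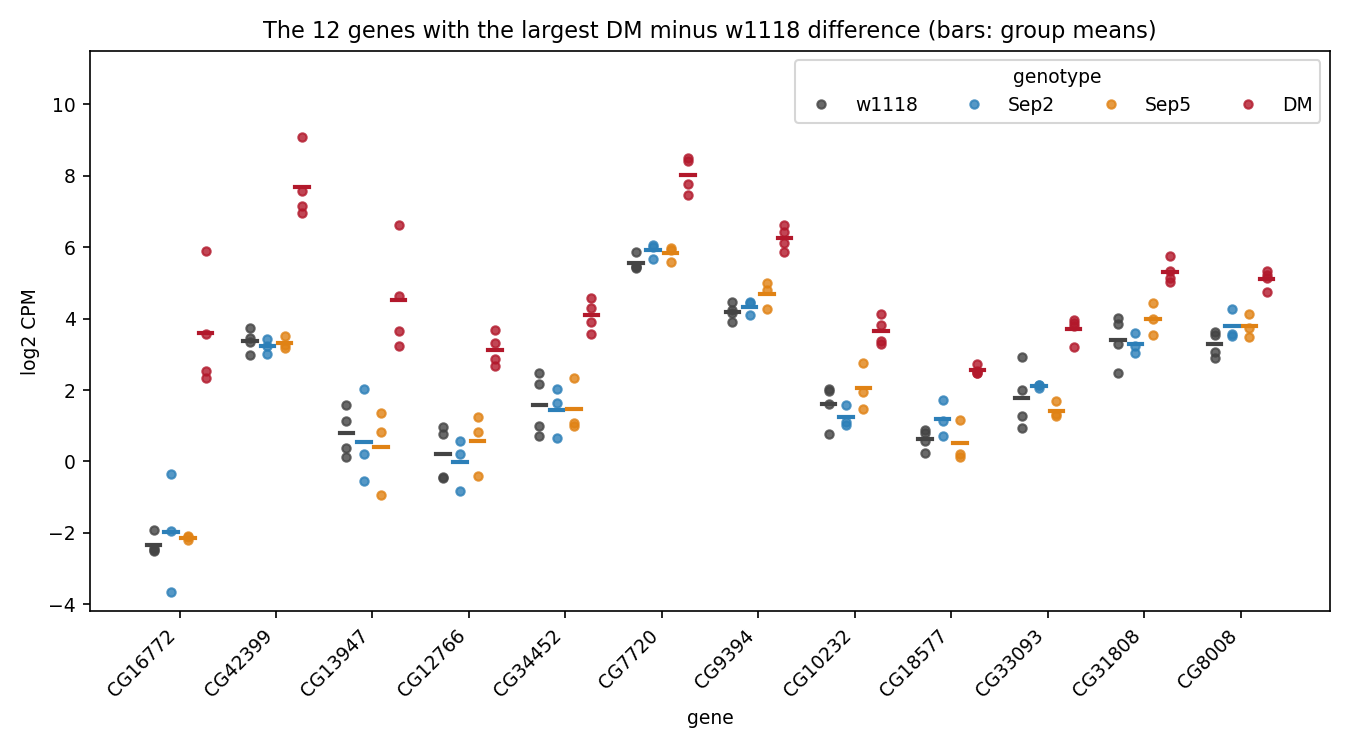
Log2 CPM (y axis) of the 12 unnamed genes with the largest difference between double mutant (DM) and w1118 means (x axis). Points are libraries and bars are genotype means. For CG42399 the 4 red points lie at 6.95 or higher and all other points at 3.75 or lower, while for CG33093 the lowest red point (3.19) lies only 0.263 above the highest w1118 library.

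CG10232 (3R, 23719343 to 23721625) has the RefSeq synonym SP14, from the numbering of serine proteases and their homologs. Its values were 0.76, 1.98, 1.62 and 2.04 log2 CPM in w1118 and 3.83, 3.29, 3.38 and 4.14 in the double mutant. Sep5 replicate 1, at 2.77, was the nearest other library, and the means differed by 2.06. CG30371 (2R, 8267643 to 8269334), SP80 in the same numbering, stood at 3.94, 4.01, 4.22 and 3.71 in w1118 and 5.01, 5.59, 5.43 and 5.61 in the double mutant. The nearest library was there Sep2 replicate 3, at 4.86, and Sep5 replicate 2 fell to 2.43, below all other libraries.

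Further members had a synonym of this kind. CG4733 (3R, 19890689 to 19898738) carries names of the PR72 (B'') regulatory subunit of protein phosphatase 2A, which directs that phosphatase to its substrates. It stood at 3.37, 3.24, 3.41 and 3.21 log2 CPM in w1118 and at 4.46, 4.53, 4.68 and 5.35 in the double mutant. Sep2 lay at or below w1118 (2.97, 2.39 and 3.29), and Sep5 at or above most of it (3.80, 3.34 and 4.12). CG12746 (3R, 5564865 to 5567435), called WUN-like after wunen, a lipid phosphate phosphatase, held 3.86, 3.97, 4.05 and 3.97 in w1118 and 5.10, 4.92, 5.24 and 5.55 in the double mutant. CG11044 (2R, 20231829 to 20234927), with the synonym FBXO10, shares its name with a human F-box protein, a class of subunits that select targets for ubiquitin ligases. Its w1118 values of 1.05, 2.04, 2.21 and 0.82 were uneven, with replicates 2 and 3 high, and the double mutant stood at 2.51, 3.22, 2.70 and 3.09. CG13937 (3L, 1876551 to 1883041), with the synonym d4ST2, moved from 2.53 to 2.80 in w1118 to 3.48 to 4.22 in the double mutant, and its highest other library, Sep5 replicate 3 at 3.45, was 0.0373 below.

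CG9394 (2R, 21118394 to 21120705), a single-exon gene, completed the members with a difference of at least 2. It ran from 3.91 to 4.46 log2 CPM in w1118 and from 5.87 to 6.63 in the double mutant, with a mean difference of 2.07. The next by size were CG18577 (difference 1.92), CG33093 (1.92), CG31808 (1.90) and CG8008 (1.83). CG18577 was even in the double mutant, with 2.72, 2.46, 2.55 and 2.47, whereas w1118 replicate 3 brought CG33093, at 2.93, near its lowest double mutant library. CG8008 lay 0.50 above w1118 in both single mutants, between the control and the double mutant.

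Levels between genes were compared per length of exon. In the double mutant they ran from 0.910 to 509 CPM per kb with a median of 13.5, and in w1118 the median was 4.25. CG17549 (2L, 19387050 to 19390075) was the most abundant, at 188 ± 32 CPM per kb in w1118 and 509 ± 138 in the double mutant. CG9449 (3L, 19492053 to 19497723) followed with 66.7 ± 19.7 and 173 ± 53, and CG8206 (X, 15739230 to 15740417) with 52.4 ± 14.2 and 124 ± 6.3 (SD, n = 4 each). None of these 3 was near silence in the control. CG17549 stood at 9.15, 9.74, 8.95 and 9.04 log2 CPM in the double mutant, and Sep5 replicate 1, at 8.86, came within 0.0965 of the lowest.

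The other 5 of the 10 members with the highest double mutant means on the log2 CPM scale had differences of at most 1.35 log2 units. CG42390 went from 6.79 ± 0.11 to 8.10 ± 0.29 log2 CPM, CG2930 from 6.71 ± 0.19 to 8.05 ± 0.19, and CG8086 from 6.47 ± 0.37 to 7.77 ± 0.14 (SD, n = 4 each). CG3328 stood at 6.90, 6.12, 6.38 and 5.94 in w1118 and at 7.19, 7.58, 7.48 and 7.50 in the double mutant. Its Sep5 replicate 3, at 7.10, lay 0.0904 under the lowest of those. CG18473 went from 5.35 ± 0.53 to 6.47 ± 0.29. Of all 71 genes, 30 had double mutant means from 2 to below 4, 25 from 4 to below 6 and 16 of 6 or more. In w1118, 20 had means below 2 and CG16772 alone was below 0.

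Members also differed in how evenly the 4 double mutant libraries read. Their SD had a median of 0.29 log2 units, against 0.33 over all tested genes. The required separation of libraries favours a small spread, so the lower median may follow from the choice. CG7882 (2R, 5957621 to 5960183) was the most even, at 4.54, 4.51, 4.60 and 4.47 in the double mutant and 2.64, 2.85, 3.33 and 3.29 in w1118. CG9547 and CG4829 followed, with SDs of 0.07 each. CG42561, by contrast, held 1.24, 2.77, 1.15 and 3.24, with replicates 2 and 4 high, and CG10962 climbed to 7.46 in replicate 4 from 5.65 to 6.46 in the other 3. Replicates 2, 3 and 4 were the highest double mutant library for 18, 25 and 24 members and replicate 1 for 4, while the lowest fell on replicates 1 to 4 for 20, 16, 16 and 19. Over all tested genes the shares were 22.4%, 26.6%, 21.6% and 29.3% for the lowest and 24.8%, 28.5%, 19.6% and 27.1% for the highest. Among the members replicate 1 was rarely the highest (5.63%) and replicate 3 often (35.2%). Replicate 4, the library with 160 Septin2 reads, was the lowest for 26.8%, against 29.3% of tested genes. Because the choice used these libraries and members can move together, the shares are a description only.

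At the edge of the choice, the 6 members with the smallest differences were CG14195 (1.01), CG8303, CG15202, CG9896 and CG17739 (1.02 each) and CG2246 (1.03). CG44098, CG12883 and CG14696 (0.99 each), CG1640 and CG34331 (0.98 each) and CG11095 (0.97) failed only the required difference of 1. CG15202 and CG14195 also separated by the narrowest steps, 0.00115 and 0.00234. A further 139 unnamed genes failed only the closeness of the single mutants, 105 only the difference, 38 only the separation and 11 only the level.

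The single mutants were held within 0.6 of w1118 by the choice, but they did not lie evenly about it. The Sep5 mean was above the w1118 mean for 57 of the 71 genes (80.3%), against 49.0% of all tested genes, and the median displacement was 0.35 against -0.01. The Sep2 mean was above for 32 (45.1%, against 47.8% of tested genes), with a median of -0.04. In 30 genes Sep5 lay above and Sep2 below w1118, in 5 the reverse, in 27 both lay above and in 9 both below. These displacements share the w1118 libraries with the double mutant difference, and the choice used them all, so they are given without a test. Over all tested genes limma called 3.26% higher and 1.24% lower in Sep2 than in w1118, and 3.89% higher and 1.24% lower in Sep5. For 46 members (64.8%) the highest library outside the double mutant was Sep5 replicate 1 or 3, which was so for 26.2% of tested genes. Because the choice used these values, the shares over all tested genes stand beside them as a description only.

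**Figure D3:**
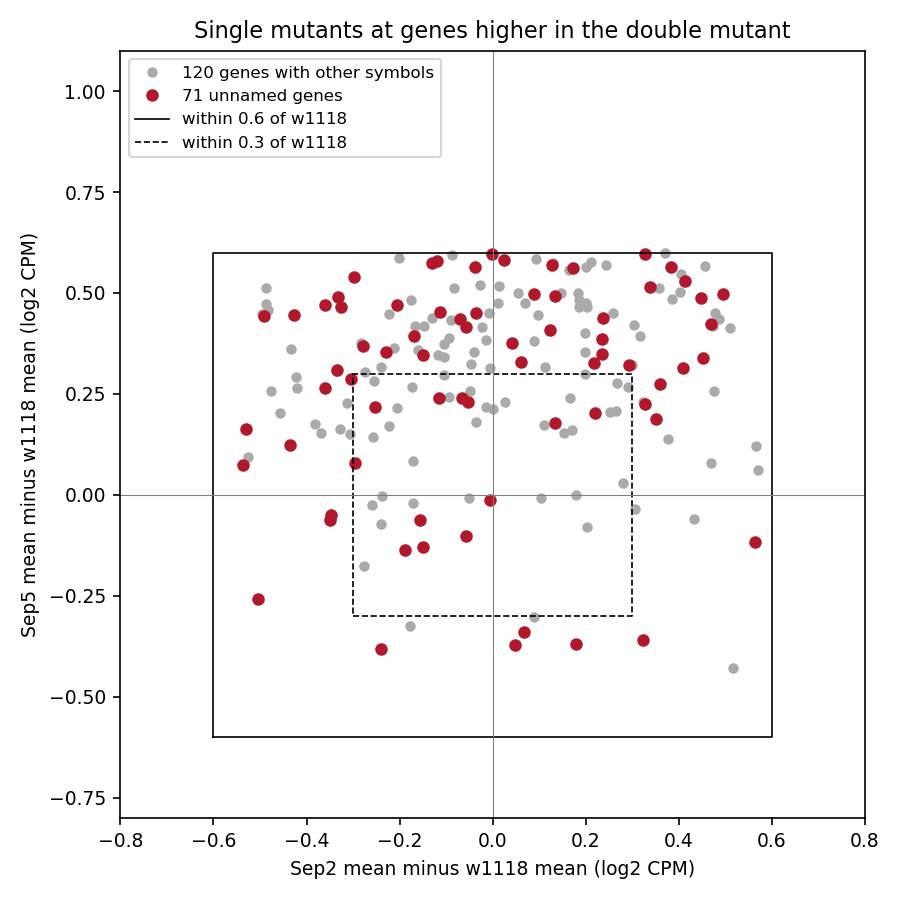
Mean of Sep2 (x axis) and of Sep5 (y axis) minus the w1118 mean, in log2 CPM, for the 71 unnamed genes (red) and the 120 genes with other symbols that met the same thresholds (grey). The solid box marks the 0.6 allowed and the dashed box 0.3. Most points lie above the horizontal line (57 of 71 red and 106 of 120 grey), and 12 red points lie inside the dashed box.

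The displacement was uneven over the Sep5 libraries. Sep5 replicates 1 and 3 had median deviations of 0.45 and 0.53 over the 71 genes, and Sep5 replicate 2 had 0.01. The Sep2 libraries had -0.15, -0.10 and 0.28 and the w1118 libraries -0.13, 0.04, 0.19 and -0.16. Double mutant medians were 1.17 to 1.44, while medians over all tested genes stayed between -0.10 and 0.06 in every library. Replicate 2 had the median closest to w1118 of the 3, and without it 29 of the 71 no longer met the thresholds. Members together took 0.318% to 0.389% of the reads of a double mutant library and 0.156% to 0.232% of the reads of any other.

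In 12 members both single mutant means were within 0.3 of w1118. They were CG42399, CG34452, CG18609, CG5646, CG42326, CG3014, CG6689, CG1544, CG12239, CG9896, CG8303 and CG14195. All 12 still met the thresholds without Sep5 replicate 2, an omission that could remove them only through their Sep5 mean. CG42326, CG12239 and CG8303 no longer met them without double mutant replicate 4. CG1544 (3R, 31196916 to 31203722) was the closest to w1118, at -0.01 in both single mutants. Its libraries held 4.95, 4.64, 4.83 and 4.79 log2 CPM in w1118, 4.94, 4.36 and 5.10 in Sep2 and 4.64, 4.45 and 5.28 in Sep5. The double mutant stood clear of these, at 5.88, 5.66, 6.21 and 6.04. CG6689 (3R, 11217898 to 11220064) was more even, with 3.37 to 3.61 in w1118 and 4.53 to 4.72 in the double mutant. CG3014 stood at 0.59 in Sep5 replicate 1, below all its w1118 libraries, and at 2.21 to 3.01 in the double mutant.

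At the other side were genes near the limit of 0.6 in Sep5. CG6867 lay 0.60 above w1118 in Sep5 and level with it in Sep2, with double mutant values of 4.24, 4.72, 4.47 and 5.05 log2 CPM. Its Sep5 replicate 3, at 4.09, was 0.152 under the lowest of those. CG3719 also lay 0.60 above in Sep5, and its Sep5 replicate 3 (4.95) came within 0.0351 of the lowest double mutant library (4.99). CG15739 came closer still, 4.28 in Sep5 replicate 3 against 4.30 in double mutant replicate 1. CG30371, CG42561, CG13947, CG33093 and CG18473, in contrast, lay 0.34 to 0.38 below w1118 in Sep5.

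**Figure D4:**
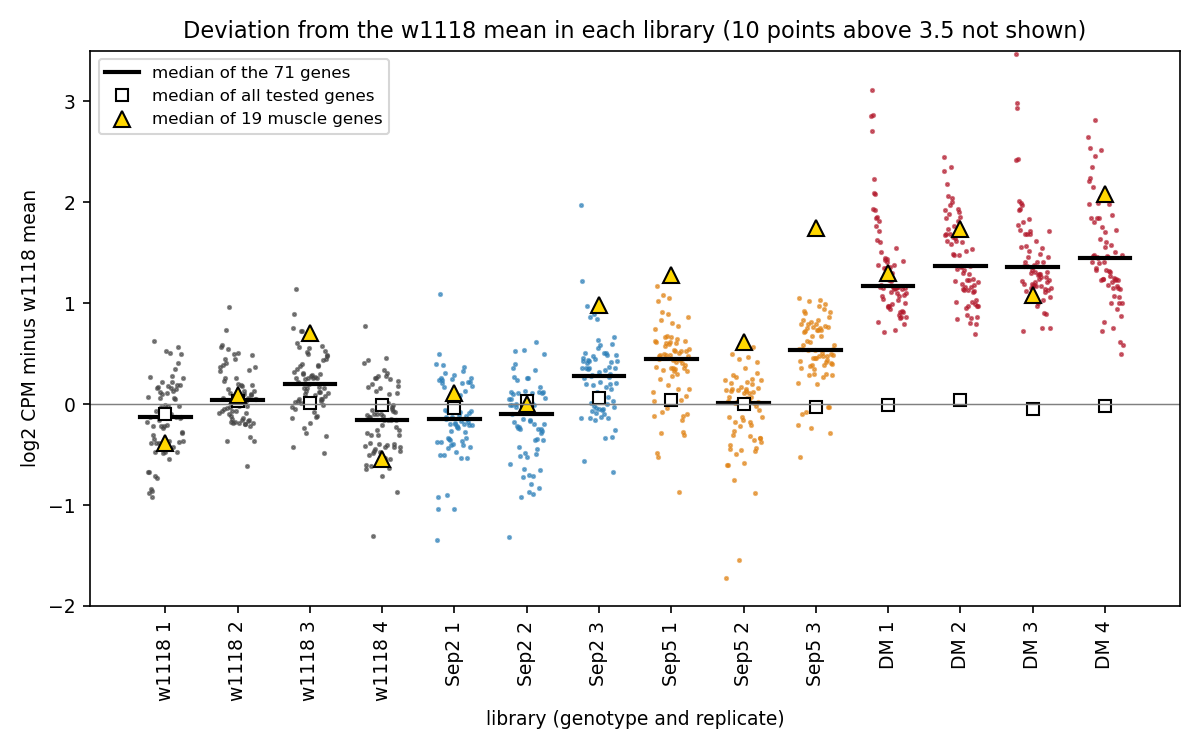
Log2 CPM minus the w1118 mean (y axis) of the 71 unnamed genes in each library (x axis, coloured points by genotype, DM is the double mutant). Black bars are medians over the 71 genes, open squares medians over all tested genes and triangles medians over 19 body wall muscle genes. 10 points above 3.5 are not shown. The bars are highest in the double mutant (1.17 to 1.44) and next in Sep5 replicates 1 and 3, and the triangles are also high in those libraries, with the lowest double mutant triangle in replicate 3 and the lowest bar in replicate 1.

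Lists of known genes gave the setting in which the 71 moved, and 22 were counted. Over all tested genes, 22.5% were called higher and 22.5% lower in the double mutant than in w1118. The 19 body wall muscle genes, among them Tm2 (tropomyosin) and Mlp60A (a muscle LIM protein), had 15 higher and none lower in the double mutant than in w1118. Their median was 1.47, against -0.01 over all tested genes (limma, adjusted p below 0.05 for each gene counted). Tm2 rose from 9.32 to 11.25 log2 CPM (difference 1.92, SE 0.33, adjusted p = 0.000542, limma). By library the muscle median deviated from w1118 by 1.29, 1.74, 1.08 and 2.08 in the double mutant and by 1.28, 0.61 and 1.75 in Sep5. The Sep5 libraries came in the same order as for the 71 genes. They did so for oxidative phosphorylation (0.76, 0.54 and 1.03) and midgut genes (0.86, 0.40 and 1.02) too, but not for every list. For detoxification enzymes and Malpighian tubule transporters Sep5 replicate 1, not replicate 3, was the highest, with replicate 2 again the lowest. In the double mutant replicate 3 was the lowest for muscle and replicate 1 for the 71 genes. Summed muscle CPM was 13549 to 31230 in w1118, 17593 to 35896 in Sep2, 31393 to 60134 in Sep5 and 39746 to 75121 in the double mutant, and no muscle gene was at 0. All 28 tested oxidative phosphorylation genes were higher (median 1.04), as were 31 of 47 midgut digestive enzymes (6 lower) and 15 of 22 detoxification enzymes (1 lower). In the other direction, imaginal disc genes had 12 of 15 lower (1 higher) and ecdysone response genes 14 of 19 lower (2 higher). Over the alternatives the leading counts of these lists were 13 to 15 (muscle), 23 to 28 (oxidative phosphorylation), 28 to 32 (midgut), 13 to 16 (detoxification), 12 (discs) and 13 to 14 (ecdysone). Reads of the large mitochondrial ribosomal RNA made up 10.6% to 24.9% of double mutant libraries and 4.74% to 11.8% of the others. The part of these shifts in the levels of the 71 genes was not tested.

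Along the chromosomes the members were spread. Arms X, 2L, 2R, 3L and 3R held 13, 13, 18, 10 and 17 of them, and chromosome 4 held none. Arm 2R thus held 25.4% of them and 3L 14.1%, beside 695 and 709 of the 3650 tested unnamed genes with the required level. CG10877 (3R, 20562486 to 20564067) was the nearest member to a mutated gene, 22.1 kb from Septin2 (3R, 20586129 to 20588356), and the only member within 100000 bases of it. None lay within that distance of Septin5. CG10877 stood at 3.40, 3.43, 3.60 and 3.21 log2 CPM in w1118 and at 4.38, 5.26, 4.60 and 4.82 in the double mutant, with Sep5 replicate 1 highest among the rest at 4.07. Of the 32 tested genes within 100000 bases of Septin2, 4 differed by 1 or more and as many by -1 or less. Within that distance of Septin5, 2 of 34 differed by 1 or more and 4 by -1 or less. Over all tested genes the shares were 13.2% and 16.1%.

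No pair of members were direct neighbours among the tested genes. CG42399 next to Pus10 and CG42714 next to BG642312 were the members whose neighbour met the same thresholds, 2 of 71 (2.82%, against 2.98% for any tested gene). CG42714 (3L, 6233491 to 6234056) held 0.78, 1.70, 1.77 and 0.79 log2 CPM in w1118 and 2.69, 3.07, 2.97 and 1.98 in the double mutant. CG17350 (2L, 19380930 to 19383093) and CG17549 had a single tested gene between them, fon, which stood at 0.93. Of the 142 positions next to a member (141 genes, since fon held 2), 36 (25.4%) held a gene that differed by at least 1 from w1118, against 13.2% of the positions next to any tested gene. Next to the 533 other unnamed genes of the required level and difference that were no members, it was 31.8%. Neighbours also went the other way, as ImpE2 beside CG42324 (-5.28) and CG2070 beside CG30495 (-3.92) did, while CG7881 beside CG7882 stood at 4.90.

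All 71 members are annotated as protein coding. Their exons covered 451 to 8105 bases with a median of 1917. That median was 1819.5 over all tested genes and 1631 over the tested unnamed genes with the required level. The canonical transcript had a median of 4 exons (3 in each of those sets), with 8 members of a single exon. Of the 71, 32 (45.1%, against 47.6% of tested genes) overlapped another annotated gene, 7 of them on the same strand. None of the 26 overlapping genes that were tested met the thresholds. The sources used here do not say whether reads were assigned by strand, and such pairs can then share reads. CG2930 and yin, on opposite strands, moved apart (1.35 and -2.43), while CG44251 and CG44250 on the same strand stood at 1.35 and 1.41. CG2246 contains CG31019, which stood at 2.17.

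The 120 genes with other symbols that met the thresholds had a median difference of 1.24, beside 1.35 for the 71. Their exons were longer, with a median of 2935.5 bases against 1917, though lengths over all tested genes with other symbols were not compared. Per length of exon their median double mutant level was 20.3 CPM per kb, over the 118 with a known length, beside 13.5 for the 71. Their Sep5 mean was above w1118 in 106 and their Sep2 mean in 61, with medians of 0.33 and 0.01. Those with the largest differences were sordd2, sba, BG642312, tau, Oseg4, GstD2, Tbh, Cyp6a9, CDase, Agxt, iotaTry and FBgn0019643, and they have assorted roles. The microtubule-binding protein tau, the octopamine-making enzyme Tbh, the detoxification enzymes GstD2 and Cyp6a9 and the digestive trypsin iotaTry are among them. The gene sordd2 had 0 reads in w1118 and in Sep5, 1 in Sep2 and 480 in the double mutant.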

How the data were processed

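The authors deposited log2 CPM of 17869 genes in 14 libraries, scaled by TMM in edgeR according to the series text. The submitters' processing notes list STAR 2.7.11b, FastQC 0.11.9, edgeR 3.40, cutadapt 3.5 and, as builds, dm6 and BDGP6. On the linear scale, after subtracting the table's floor (0.0797 CPM), 100% of values were whole reads within 0.01 reads, which gave the reads per library and gene. The small count added before logs understates the differences of low genes. Intervals are not given, and depth limits genes with few reads most.

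The members, the 22 gene lists, the tests and the alternatives were chosen with earlier results of these data known. Members were found from the rule in Python 3.11.15 with pandas 2.3.3. Genes above 0 log2 CPM in at least 3 libraries were fitted with limma 3.58.1 (R 4.3.3), genotype as the single term, intensity trend and robust shrinkage, and Benjamini-Hochberg adjustment over 12586 genes with 0.05 as threshold. The fit was tested on simulated data. The p-values reflect only how these samples vary, possibly for technical reasons. Within genotypes, libraries differed beyond sampling noise (chi-square per degree of freedom at least 25.6).

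Members named are the 12 with the largest differences, the 10 with the highest double mutant means, the 6 at each side of the required difference and those next to genes that met the thresholds. Of other genes meeting them, the 12 with the largest differences are named, and of each list those with the smallest adjusted p. Further members were named after their values were seen, for an annotated synonym, evenness, closeness to w1118 or to the limit, position or a library that stood apart. Positions came from the Ensembl annotation of BDGP6, release 115. Sequences were not analysed here.

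Groups share replicate numbers. After group means were removed, same-numbered libraries of w1118 and Sep2 correlated at 0.30, 0.45 and 0.17. The values with w1118 were -0.08, 0.32 and 0.39 for Sep5 and -0.13, -0.35, 0.01 and 0.20 for the double mutant. Only Sep2 had every value above 0.1, and by that rule it was taken as paired. No values for differently numbered libraries are set beside these, so they cannot tell pairing from shifts that libraries share for other reasons. Alternatives were other thresholds, scalings, variance models, a replicate block, double mutant replicates 1 and 2 alone (added after the data were seen) and the omission of each library.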

Additional observations from a re-analysis of the deposited data

Results flagged for a closer look

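In 6 of 146 sets of 4 libraries examined (the w1118 and double mutant values of each member, Septin2 and Septin5), 1 library stood apart from the other 3 by more than Dixon's 95% critical value. Chance gives about 1 in 20. CG16772 stood at -1.93 log2 CPM in w1118 replicate 4 and between -2.51 and -2.42 in the other w1118 libraries, on 2 to 5 reads each. CG7720 stood at 5.86 in w1118 replicate 3, above 5.42 to 5.48. CG6785 was low in the same library, at 1.92 against 2.51 to 2.59. In the double mutant, CG15117 stood at 5.11 in replicate 3 against 4.63 to 4.71. CG5704 (4.56 against 3.55 to 3.71) and CG12239 (4.36 against 3.51 to 3.64) were high in replicate 4, the library with 160 Septin2 reads.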

How the results depend on the processing

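The count of 71 unnamed genes depended on the thresholds and on Sep5 replicate 2. It was 41 with a double mutant mean of at least 4, 12 with the single mutants within 0.3, 132 within 1, and 8 with a difference of at least 2. For the 120 other symbols the last 3 were 32, 211 and 7. Omitting single libraries gave 43 (without Sep5 replicate 2) to 101 (without Sep5 replicate 3) unnamed genes and 90 to 190 others, with the same libraries at the ends. Quantile normalization gave 86 unnamed genes (66 of the 71 among them), centring 84 (69), 1 CPM added 84 (61), and double mutant replicates 1 and 2 alone 99 (60). In each omission 18 of the 71 were kept, under all 3 scalings 56, and in all of these 15. Members with a neighbour meeting the thresholds went from 2 to 1 with starts within 5000 bases. The double mutant against w1118 gave 5658 calls (4812 to 5708 without single libraries). Sep2 gave 566, with 4091 under sample weights (46.1% higher, against 72.4%) and 312 to 617 without single libraries. The replicate block put same-numbered libraries of all genotypes together, though only Sep2 was taken as paired with w1118. With it Sep2 had 528 calls, Sep5 592 and the double mutant 5706. The main fit had no such term. Sep5 gave 646, with 350 from only the libraries of both groups and 238 to 1373 without single libraries. The share higher in Sep5 was 58.2% under sample weights, against 75.8%. The cause of these changes was not tested.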

Other observations

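The other 16 lists were counted in the double mutant against w1118 with limma (adjusted p below 0.05 for each gene counted). Over all tested genes 22.5% were called higher and 22.5% lower. List counts near these shares, such as those of immune peptides, glia and trachea, are not read as a shift of the list. Malpighian tubule transporters had 8 of 16 tested genes higher and 1 lower (median 0.70), with 6 to 9 higher over the alternatives. Hemocyte markers had 9 of 16 higher (6 to 9) and 1 lower, and fat body genes 9 higher (4 to 10) and 2 lower of 16. Lysozymes, which break down bacterial cell walls, had 6 of 7 higher in each alternative and 1 lower. Epidermis and cuticle genes had 8 of 20 higher (5 to 8) and 4 lower, female germline genes 4 of 6 higher (2 to 6), and immune peptides 5 of 22 higher (4 to 7) and 2 lower. Tracheal genes had 1 of 6 higher. Cell cycle genes had 9 of 21 lower (7 to 11) and 1 higher, male germline genes 8 of 19 lower (5 to 10), heat shock genes 4 of 14 lower (2 to 6) and adult markers 1 of 4 lower (0 to 1). The 6 salivary glue genes had 5 lower, and 0 with double mutant replicates 1 and 2 alone. Of the 5 septins, the mutated ones included, 4 were lower (3 to 4). Neuronal and glial markers had 1 of 17 (1 to 3) and 2 of 9 higher (1 to 3), with 2 lower in each list.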
